A study of Caenorhabditis elegans with 2 samples.

Results

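The 8 genes described here code for enzymes that use up propionate or turn the methionine cycle in Caenorhabditis elegans, and the data show where the gut transcription factor ELT-2 was found around them. They are pcca-1, pccb-1, mce-1, mmcm-1, hphd-1, metr-1, mtrr-1 and sams-1, 8 of the 19973 protein-coding genes of the nuclear chromosomes. Peaks were taken as theirs where the summit lay inside the gene or within 5000 bp of it. The samples were whole hermaphrodite L1 larvae, the first larval stage, of strain OP56, which has the mutation unc-119(ed3) on chromosome III and the transgene wgIs56, from which ELT-2 is made with a C-terminal GFP-FLAG tag. Larvae were starved after bleaching to bring them into step and taken 6 h later, and an antibody against GFP recovered the tagged protein with its DNA for sequencing (ChIP-seq). Both replicates, 2 in all, are biological and belong to a single group. With no second condition, nothing below is a comparison between treatments, and no test was run. As whole larvae were used, the cells in which a site was occupied are not known, and the occupancy of tagged ELT-2 made from a transgene was measured, not that of the native protein.

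ELT-2 is the main GATA factor of the worm intestine, the organ that also serves as the animal's liver and fat store. Propionate, a toxic product of odd-chain fatty acid and branched amino acid breakdown, is cleared by a canonical route that needs cobalamin (vitamin B12). In it propionyl-CoA carboxylase (the subunits PCCA-1 and PCCB-1), the epimerase MCE-1 and the mutase MMCM-1 lead to succinyl-CoA. When cobalamin is scarce, worms switch on a shunt without cobalamin, in which HPHD-1 oxidizes 3-hydroxypropionate. The other cobalamin enzyme of the worm, methionine synthase (METR-1), remakes methionine with the help of its reductase MTRR-1, and SAMS-1 turns methionine into S-adenosylmethionine, the methyl donor used among other things to make phosphatidylcholine. Many worm messages receive a spliced leader in place of their own first bases, so an annotated 5′ end can lie downstream of the point where transcription starts.

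The DNA under the summits is shown first, since the presence and absence of GATA words at them recurs below. The 10 windows were picked by eye from the 16 as examples from each of the 6 genes, with and without GATA words, upstream of and inside genes. Each reaches from 50 bases before to 50 bases after a summit of the thresholded list, read from the RefSeq sequence of WBcel235 (ce11) along the strand of the gene, 5′ to 3′. Capitals mark 4 GATA words on either strand, so that a word on the opposite strand appears as its reverse complement. They are TGATAA, the hexamer typical of ELT-2 sites, and its relatives with another first or last base, namely TGATAG as well as AGATAA and also AGATAG.
pcca-1, 74 bp upstream (chrX:7661010-7661110, minus strand): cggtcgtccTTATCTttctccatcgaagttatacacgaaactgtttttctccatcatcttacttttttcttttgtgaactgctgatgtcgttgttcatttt
pccb-1, intron (chrX:3089915-3090015, plus strand): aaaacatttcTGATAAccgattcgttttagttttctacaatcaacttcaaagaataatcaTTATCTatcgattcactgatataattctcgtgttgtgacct
hphd-1, intron beside the alternative starts (chrII:12996391-12996491, minus strand): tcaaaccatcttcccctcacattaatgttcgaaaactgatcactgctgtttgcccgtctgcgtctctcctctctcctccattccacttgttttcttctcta
hphd-1, coding exon (chrII:12995831-12995931, minus strand): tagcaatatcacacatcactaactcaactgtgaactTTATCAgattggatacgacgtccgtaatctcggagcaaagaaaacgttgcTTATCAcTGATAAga
metr-1, 1700 bp upstream (chrII:10924811-10924911, plus strand): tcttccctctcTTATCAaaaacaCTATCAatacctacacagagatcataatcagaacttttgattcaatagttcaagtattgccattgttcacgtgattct
metr-1, 758 bp upstream (chrII:10925753-10925853, plus strand): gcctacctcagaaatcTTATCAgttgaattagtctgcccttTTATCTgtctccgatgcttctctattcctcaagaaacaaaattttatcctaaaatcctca
mtrr-1, 2977 bp upstream (chrII:9282948-9283048, plus strand): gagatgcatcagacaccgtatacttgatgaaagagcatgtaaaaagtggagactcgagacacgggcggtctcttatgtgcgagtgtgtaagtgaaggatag
mtrr-1, 1746 bp upstream (chrII:9284179-9284279, plus strand): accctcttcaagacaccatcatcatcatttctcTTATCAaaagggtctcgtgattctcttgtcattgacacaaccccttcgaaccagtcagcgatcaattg
sams-1, 109 bp upstream (chrX:11965803-11965903, plus strand): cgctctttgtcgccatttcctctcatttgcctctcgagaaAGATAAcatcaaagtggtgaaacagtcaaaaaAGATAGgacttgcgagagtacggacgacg
sams-1, intron (chrX:11968136-11968236, plus strand): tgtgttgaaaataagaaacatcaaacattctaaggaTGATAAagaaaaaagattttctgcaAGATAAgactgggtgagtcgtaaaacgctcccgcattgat

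In these windows the coding exon of hphd-1 held TGATAA 3 times, 2 of the copies side by side on opposite strands. The hphd-1 window beside the alternative starts and the mtrr-1 window 2977 bp upstream held no GATA word at all. At sams-1 the window nearest to the start held AGATAA and AGATAG and no TGATAA, and the intron window held TGATAA and AGATAA.

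Thresholded ELT-2 peaks, those kept by IDR, the irreproducible discovery rate, a comparison of peak ranks between replicates, lay inside or within 5000 bp of 6 of the 8 genes. Over all protein-coding genes this share was 45.8%, so the rule is met by many genes. All 3 members on X met it (pcca-1, pccb-1 and sams-1), against 52.5% of genes on X, and 3 of 5 on the autosomes (hphd-1, metr-1 and mtrr-1), against 44.8% there. The exceptions were mce-1 and mmcm-1, which code for the last enzymes of the canonical propionate route. Summits in the promoter, here the stretch from 1000 bp before any annotated transcript 5′ end to 200 bp after it, were found for 5 of 8 members (pcca-1, pccb-1, hphd-1, metr-1 and sams-1), against 17.0% of all genes. For 6 members, mtrr-1 being the sixth, a summit had the member's 5′ end as its nearest protein-coding 5′ end within 5000 bp, against 19.3% of all genes. As the members were listed with earlier results of these data known, these counts describe them and are not evidence for a rule about such genes.

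**Figure D1:**
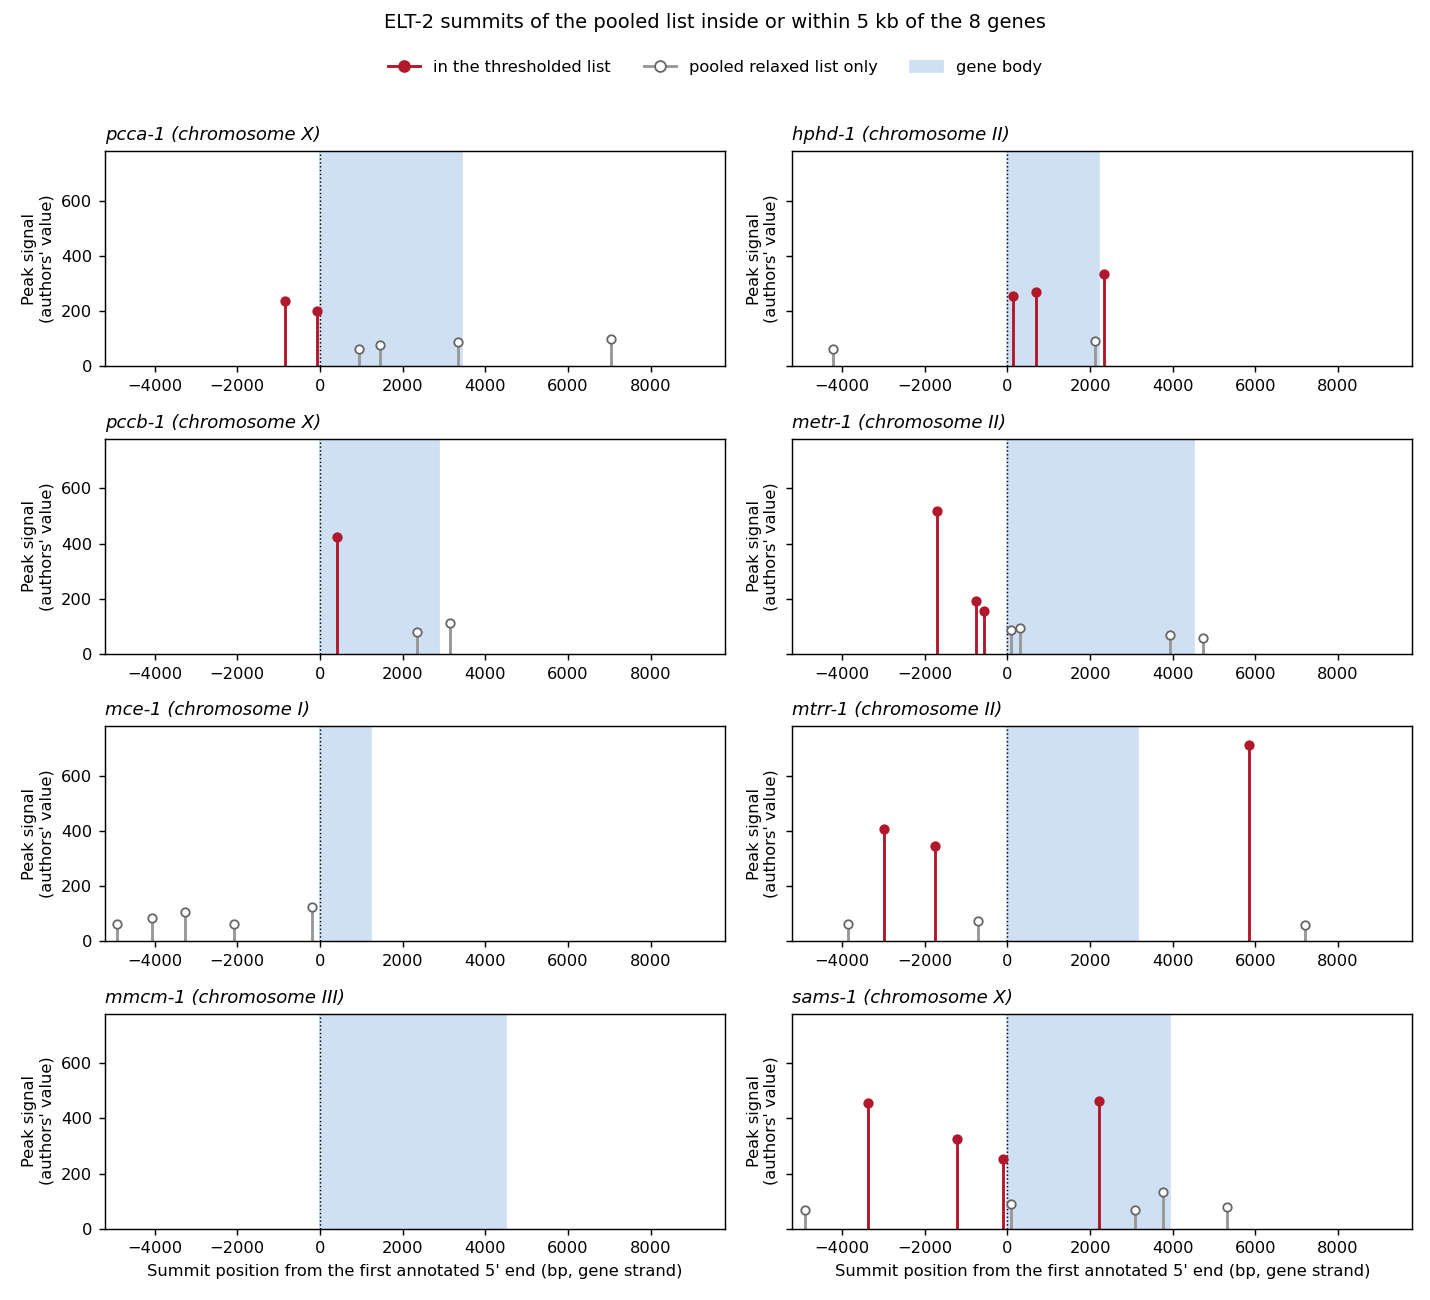
Peak signal in the pooled list, as the authors' caller gave it (vertical axis), against the summit's position from the first annotated 5′ end (horizontal axis, bp along the gene strand) for the 8 genes. Filled red points are in the thresholded list, open grey points only in the pooled relaxed list, and the blue band is the gene. The panels of mce-1 and mmcm-1 hold no red point, and that of mmcm-1 holds no point at all, while sams-1 holds 4 red points.

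The 6 genes shared 16 thresholded peaks of 5443 in all. By position along the gene, 10 summits lay upstream, 3 in introns, 1 in a coding exon and 2 beyond the 3′ end. Ranked by signal, the enrichment value of the authors' peak caller, they ran from rank 331 to rank 4929 with a median of 1747, and 12 of the 16 were in the stronger part of the list, its first 2721 peaks. Only 7 of the 16 lay in the promoter of a member. For 4 of them, at ranks 331, 756, 1002 and 1234, the nearest protein-coding 5′ end was that of another gene. These 4 are thus among the stronger ones. Summits per gene were also counted, for members and all genes alike, by a rule that takes in peaks nearer to a neighbour. Such peaks are among those of metr-1, mtrr-1 and sams-1, and the metr-1 peaks in its promoter overlap each other. Of the 8 genes 4 (hphd-1, metr-1, mtrr-1 and sams-1) had 3 or more thresholded summits inside or within 5000 bp, against 8.33% of all genes, and sams-1 had 4, which 2.98% of all genes reach.

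The first step of the canonical route is carried out by propionyl-CoA carboxylase, and ELT-2 peaks stood at the genes of both of its subunits. The biotin-carrying subunit gene pcca-1 (WBGene00017864, X:7657542-7660986, minus strand) had thresholded peaks 74 and 851 bp upstream of its single annotated 5′ end. The nearer one had a signal of 201 and rank 3665 of 5443, and the farther one 236 and rank 2967. In replicate 1 the nearer peak ranked 4867 of 17177 (signal 91.3) and in replicate 2 it ranked 2502 of 18929 (signal 115). The farther one ranked 3426 in replicate 1 (signal 122) and 2774 in replicate 2 (signal 107). Their order thus differed, the farther one being the stronger in replicate 1 and the nearer one in replicate 2, though the summits of the replicates stood only 4 bp apart at each. Within 50 bp of either summit there was no TGATAA. The nearer summit had AGATAA once, and the farther one none of the 4 words.

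The gene of the other subunit, pccb-1 (WBGene00018701, X:3089549-3092437, plus strand), had a single thresholded peak with a signal of 424 and rank 1152. Its summit lay in an intron, 416 bp downstream of the first annotated 5′ end and 462 bp upstream of a second one. It is therefore counted as a promoter peak only through the internal start. It was among the stronger peaks in each replicate, with rank 1224 in replicate 1 (signal 232) and 1044 in replicate 2 (signal 193). The summits of the replicates lay 46 bp apart. The window printed above shows TGATAA 37.5 bp to the left of the summit and AGATAA, on the opposite strand, 12.5 bp to the right, measured to the middle of each word.

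The next enzyme genes of the canonical route had no thresholded peak. The epimerase gene mce-1 (WBGene00008415, I:7582106-7583333, plus strand) had no thresholded peak within 5000 bp, the nearest summit being 6510 bp from the gene. The relaxed lists, made with a loose cutoff so that background is included, did hold a peak at its start. In the pooled list the summit lay 193 bp upstream of mce-1 and 285 bp upstream of the divergent neighbour ndub-7, with a signal of 123 and rank 6315 of 16833, outside the 5443 that passed. The replicates differed here. Replicate 1 placed the peak 193 bp upstream at rank 10677 of 17177 (signal 46.8), and replicate 2 placed it 168 bp upstream at rank 4461 of 18929 (signal 75.1). Another 4 pooled peaks lay between 2072 and 4904 bp upstream, with ranks from 7236 to 15587, each nearer to the 5′ end of D2030.2 or D2030.3.

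For the mutase gene mmcm-1 (WBGene00014202, III:3903185-3907687, minus strand) none of the 4 ce11 lists held a summit inside the gene or within 5000 bp. That is the case for 13.8% of all protein-coding genes. The nearest thresholded summit was 9112 bp from the gene and the nearest pooled one 8235 bp, both on its 5′ side, beyond the neighbour pat-3. In the replicates the nearest summits were 8138 bp (replicate 1) and 8246 bp (replicate 2) away. The mutase is 1 of the 2 cobalamin enzymes of the worm, and the other, methionine synthase, is described below.

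The shunt was represented by hphd-1 (WBGene00012608, II:12994354-12996571, minus strand), whose dehydrogenase acts after 3-hydroxypropionate is formed. It has 4 annotated 5′ ends and had 3 thresholded peaks, each nearer to hphd-1 than to any other protein-coding 5′ end. The peak at the starts, 130 bp downstream of the first 5′ end and 58 bp upstream of the next, had a signal of 256 and rank 2629. In replicate 1 it ranked 1680 (signal 194) and in replicate 2 it ranked 4600 (signal 73.2). This was the widest difference in rank between replicates among the 16 peaks, 2.74-fold. The peak in the coding exon, 690 bp downstream of the first 5′ end, had a signal of 270 and rank 2422, with rank 2773 in replicate 1 (signal 141) and 1777 in replicate 2 (signal 143). The strongest of the 3 lay beyond the 3′ end, 2340 bp from the first 5′ end, with a signal of 335 and rank 1706. It ranked 2184 in replicate 1 and 1404 in replicate 2, with a signal of 165 in each. The GATA words were distributed unevenly over these summits. Those of the first and the last held none within 50 bp, while the exon summit held 3 copies of TGATAA, more than any of the other 15.

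In the methionine cycle, the methionine synthase gene metr-1 (WBGene00010988, II:10926561-10931078, plus strand) had 3 thresholded peaks upstream. The strongest lay 1700 bp upstream, outside the promoter window, with a signal of 518 and rank 756. It ranked 809 in replicate 1 (signal 287) and 639 in replicate 2 (signal 243), with replicate summits 1 bp apart. Its nearest protein-coding 5′ end, however, was that of the neighbour Y19D2B.2, 613 bp away. That gene is on the same strand, and the summit lay past its 3′ end. The peaks within the promoter window were weaker, 758 bp upstream with a signal of 192 and rank 3908, and 555 bp upstream with a signal of 155 and rank 4929. Their summits were 203 bp apart and the peaks overlap. The former ranked 3519 in replicate 1 (signal 119) and 4315 in replicate 2 (signal 77.2). The latter, at its nearest replicate summits, ranked 7333 in replicate 1 (signal 62.5) and 6635 in replicate 2 (signal 52.5), outside the 5443 strongest of either. The window 758 bp upstream holds TGATAA and AGATAA, and that 1700 bp upstream holds TGATAA and TGATAG.

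The reductase gene mtrr-1 (WBGene00006510, II:9285975-9289132, plus strand), whose product keeps methionine synthase active, had no thresholded summit in its promoter. The nearest lay 1746 bp upstream with a signal of 345 and rank 1633, and mtrr-1 was the nearest protein-coding gene to it by 5′ end. This peak ranked 1438 in replicate 1 (signal 211) and 1869 in replicate 2 (signal 139). A peak 2977 bp upstream had a signal of 408 and rank 1234, with rank 1409 in replicate 1 (signal 214) and 1077 in replicate 2 (signal 191). It stood between genes and was slightly nearer to gldi-3, 2900 bp away. The strongest peak counted for any member, with a signal of 711 and rank 331, lay 5851 bp downstream of the first mtrr-1 start. It was 191 bp upstream of the neighbour acs-7, of the acyl-CoA synthetase family, and thus in the promoter of that gene. In the promoter window of mtrr-1 itself the pooled list held 1 weak peak, 706 bp upstream at rank 11147 of 16833. The replicates differed over it. Replicate 2 had a summit 496 bp upstream at rank 4802 (signal 70.6), and replicate 1 had summits 72 and 910 bp upstream at ranks 11665 and 12531 (signals 44.1 and 42.2).

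The S-adenosylmethionine synthetase gene sams-1 (WBGene00008205, X:11965962-11969893, plus strand) had the most thresholded peaks of the 8 genes. The one nearest to its start, 109 bp upstream, had a signal of 251 and rank 2707, with rank 3383 in replicate 1 (signal 123) and 2148 in replicate 2 (signal 127). It was the weakest of the 4 in the thresholded list. The strongest lay in an intron 2224 bp downstream of the start, with a signal of 462 and rank 979, and ranked 860 in replicate 1 (signal 279) and 1008 in replicate 2 (signal 197). A peak 1217 bp upstream had a signal of 325 and rank 1788, with rank 2618 in replicate 1 (signal 146) and 1219 in replicate 2 (signal 178). The most distant, 3382 bp upstream, had a signal of 455 and rank 1002, with rank 1167 in replicate 1 (signal 240) and 918 in replicate 2 (signal 207). It lay over a pseudogene (WBGene00045316), and its nearest protein-coding 5′ end was that of C49F5.13, 1177 bp away. C49F5.13 is on the same strand as sams-1, and the summit lay past its 3′ end. At each of the 5 genes with more than 1 thresholded peak (pcca-1, hphd-1, metr-1, mtrr-1 and sams-1), the peak nearest to one of its annotated starts was not the strongest one by thresholded signal. This order did not hold in each replicate. The start peak of hphd-1 was its strongest in replicate 1 (signal 194 against 165 and 141). The nearer pcca-1 peak was the stronger in replicate 2 (signal 115 against 107). At metr-1 and mtrr-1 the strongest peak was nearer to the 5′ end of another gene.

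Across the 16 peaks the replicates marked nearly the same positions. The thresholded list was made with IDR, which compares replicates, so agreement may in part be built into it. It is therefore not read as a trait of these genes. Each of the 16 peaks had the same rank in the thresholded list as in the pooled list. How far any single peak was kept for its agreement between replicates cannot be read from the lists. When each was matched to the nearest summit of either replicate, the replicate summits lay 1 to 92 bp apart with a median of 12.5 bp. Matched instead to the strongest overlapping replicate peaks, the median was 12.5 bp for the 16 and 15.0 bp for all thresholded peaks. Under the rule that a peak overlaps, by at least 1 bp, a peak among the 5443 strongest of each replicate, all 16 were shared, against 84.9% of all thresholded peaks. This includes the weaker metr-1 peak only because it overlaps the replicate peaks of its neighbour. With summits required to lie within 100 bp, 15 of 16 were shared. No share of all thresholded peaks is given for this stricter rule, as the 84.9% belongs to the rule of 1 bp.

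**Figure D2:**
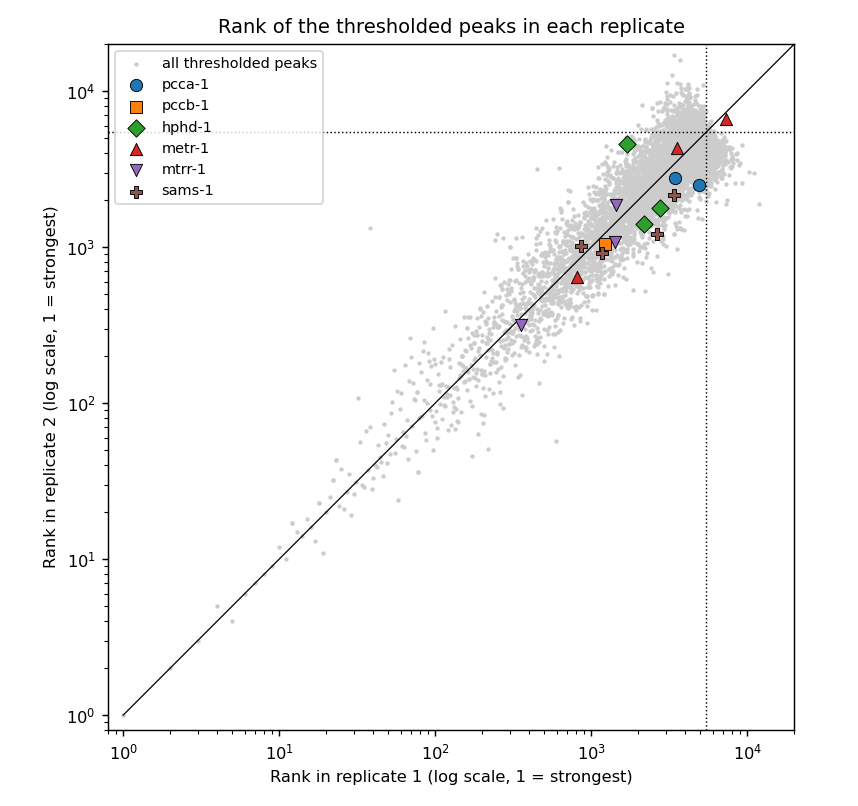
Rank in replicate 1 (horizontal) and replicate 2 (vertical), both on log scales with 1 the strongest, for the thresholded peaks. Coloured symbols are the 16 peaks at the members, matched to the nearest replicate summit, grey points are all thresholded peaks, matched to the strongest overlapping replicate peak, the diagonal is equal rank and dotted lines mark rank 5443. One metr-1 peak, at ranks 7333 and 6635, lies beyond both dotted lines, and of the 16 the hphd-1 peak at ranks 1680 and 4600 lies farthest from the diagonal.

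GATA words were counted at these summits and at all thresholded ones, and the shares were not tested against each other. Of the 16 peaks 8 had TGATAA on either strand no more than 50 bp from the summit, against 45.0% of all 5443 thresholded peaks. At points 500 bp to the right and to the left of those 5443 summits, equally wide windows had it in 9.90% and 10.4% of cases. The longer TGATAAG, which contains it, was there in 4 of 16 peaks, the same share as the 25% of all peaks, with 1.86% and 1.91% in the flanks. Any of the 4 GATA words was there in 12 of 16, 75.0%, against 57.7% of all peaks and 20.3% and 21.6% of flanks. Within 150 bp TGATAA was present in 14 of 16 peaks, 87.5%, against 65.6% of all peaks and 27.7% and 27.3% of flanks of that width. The exceptions were the sams-1 peak nearest to the start, which held other GATA words, and the mtrr-1 peak 2977 bp upstream, which held none. A match is a run of letters and not a measured site. The mean was 1.44 copies of TGATAA within 150 bp for the members' peaks and 1.20 for all peaks. The 8 peaks with TGATAA within 50 bp had ranks 331, 756, 979, 1152, 1633, 1788, 2422 and 3908. The 8 without it had ranks 1002, 1234, 1706, 2629, 2707, 2967, 3665 and 4929. The ranges overlapped, though the peaks with the word mostly ranked higher, and the difference was not tested.

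**Figure D3:**
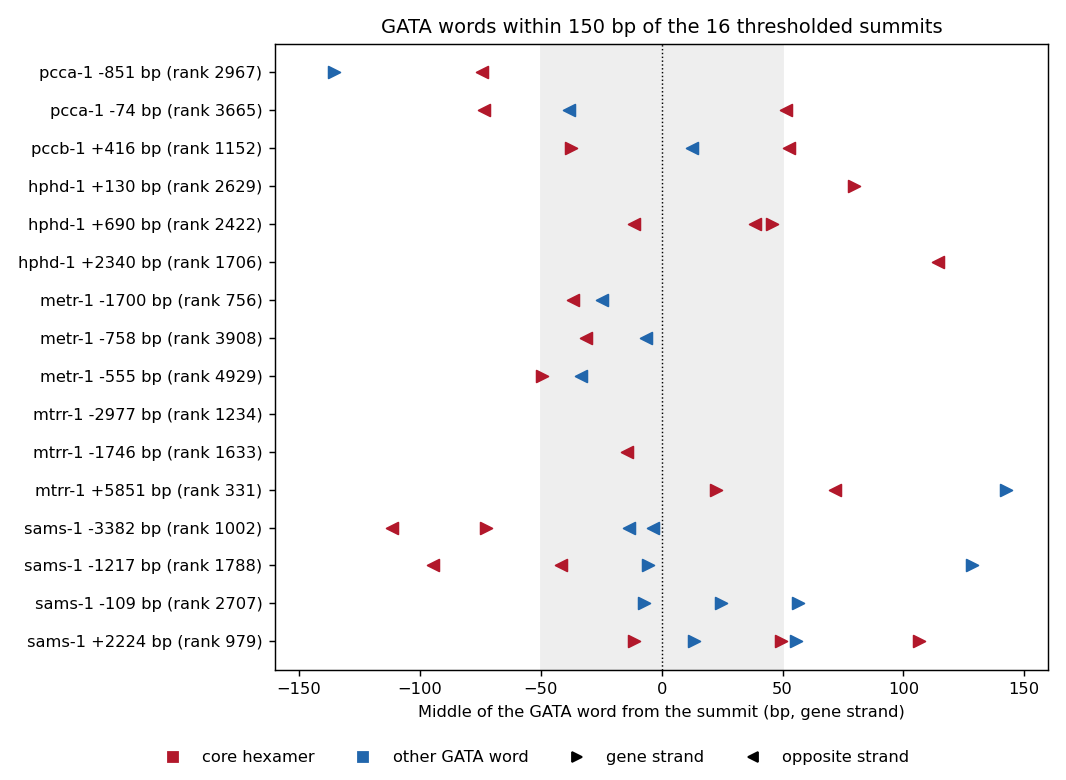
Position of each GATA word within 150 bp of the 16 thresholded summits (horizontal axis, bp from the summit along the gene strand), 1 row per peak, labelled with its distance from the first 5′ end and its rank. Red marks the core hexamer, blue the other 3 words, and the direction of the triangle gives the strand. The grey band is the window of 50 bp either side, in which a word was counted only when all its letters lay there, and the row of the mtrr-1 peak 2977 bp upstream is empty.

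The wider pathways were read from 5 lists of 34 genes, the 8 members included, of which 33 matched the annotation by symbol. The lists were drawn up with earlier results of these data known. Of the 33 genes 22 had a thresholded summit in the promoter, 66.7%, against 17.0% of all protein-coding genes, and 17 of the 25 that are not members did, 68%. Of the 22 strongest promoter peaks 19 were nearest to the listed gene and 3 nearer to a neighbour. These shares were not tested.

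The propionate shunt was covered at each of its 5 genes. The acyl-CoA dehydrogenase gene acdh-1, the first step, had its strongest promoter peak 694 bp upstream (signal 235, rank 2983). The enoyl-CoA hydratase gene ech-6 had a weak one 136 bp upstream (signal 146, rank 5305), close to the end of the list. For the hydrolase gene hach-1 it lay 328 bp upstream (signal 312, rank 1926) and was nearer to nmad-1, 188 bp away. For alh-8, the semialdehyde dehydrogenase gene of the last step, it lay 394 bp upstream (signal 271, rank 2411). The canonical route, by contrast, had promoter summits at 3 of 7 genes. Besides pcca-1 and pccb-1 this was cblc-1, of cobalamin processing, with a peak 568 bp upstream (signal 218, rank 3308) that was 8 bp from the 5′ end of ZK546.19. Of the genes that load cobalamin onto the mutase, mmaa-1 had only a peak within 5000 bp (signal 166, rank 4623) and mmab-1 none. The difference between the 2 routes was not tested.

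In the methionine cycle 5 of 9 genes had a promoter summit. Besides metr-1 and sams-1 these were mthf-1, the reductase that supplies methionine synthase with methyl groups (308 bp downstream of its nearest 5′ end and in the promoter of an internal one, signal 532, rank 725), ahcy-1, which clears S-adenosylhomocysteine (980 bp upstream, signal 379, rank 1395), and mel-32, a serine hydroxymethyltransferase gene of the folate cycle (51 bp downstream, signal 255, rank 2639). The other synthetase genes differed from sams-1. For sams-3 and sams-4 no thresholded summit lay within 5000 bp, and their best promoter peaks in the pooled list ranked 7167 and 10681 of 16833. For sams-5, named after its values were seen, a peak lay within 5000 bp (signal 271, rank 2409) but not in the promoter. The coding sequences of sams-3 and sams-4 are 91.9% identical, and those of sams-1 and the other 3 are 72.1% to 73.7% identical. How reads matching several copies were treated is not given in the sources used here, so values at sams-3 and sams-4 are uncertain.

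Of 6 matched genes for transsulfuration and the use of S-adenosylmethionine, 4 had a promoter summit. These were the cystathionine synthase gene cbs-1 (422 bp upstream, signal 355, rank 1555), the cystathionine lyase gene cth-1 (416 bp upstream, signal 249, rank 2746) and the phosphoethanolamine methyltransferase genes pmt-1 (within the gene body, 80 bp before an internal 5′ end, signal 307, rank 1980) and pmt-2 (25 bp upstream, signal 170, rank 4506). The paralog cbs-2 had no thresholded summit within 5000 bp. At cth-2 the strongest within that distance had a signal of 696 and rank 350, outside the promoter.

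Regulators and transporters of cobalamin and propionate metabolism had promoter summits in 5 of 6 cases. The nuclear receptor gene nhr-68, which with nhr-10 switches on the shunt, had the strongest of all the listed genes (signal 1486, rank 32), 400 bp upstream and 50 bp from H12C20.7. For nhr-10 a peak lay within 5000 bp only (signal 188, rank 3991). The gene of the receptor NHR-114, which acts on the methionine cycle, had one 533 bp upstream (signal 348, rank 1612), and sbp-1, the SREBP homolog of lipid synthesis, one 138 bp upstream (signal 248, rank 2762). The transporter gene mrp-5 had one 268 bp upstream (signal 1068, rank 89), and pmp-5, of cobalamin transport, one 138 bp upstream (signal 473, rank 926). Both outrank every promoter peak of the 8 enzyme genes, of which that of pccb-1 at rank 1152 was the strongest.

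**Figure D4:**
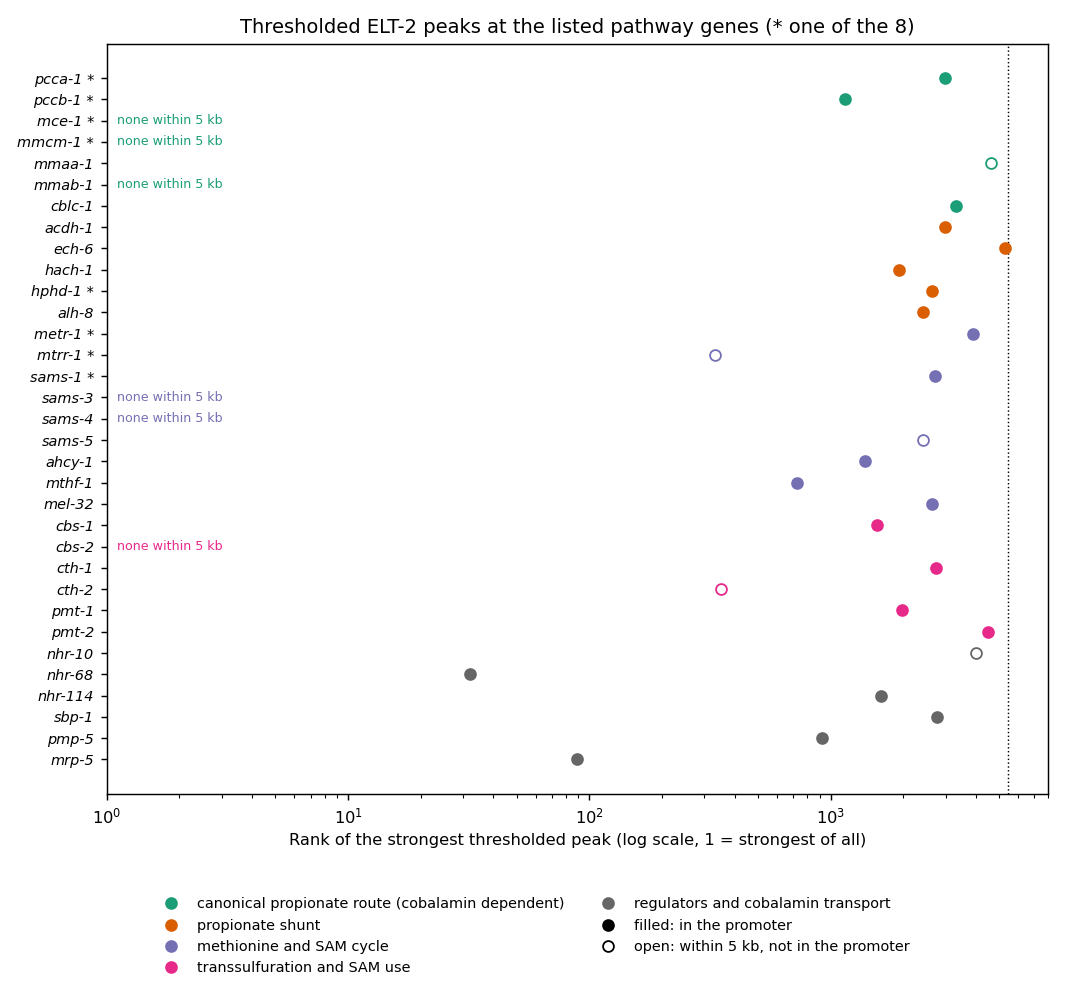
Rank of the strongest thresholded peak (log scale, 1 the strongest of all) for the 33 matched genes of the 5 lists, asterisks marking the 8 members. Filled circles are peaks in the promoter, open circles are peaks within 5000 bp where the promoter holds none, and the dotted line is rank 5443. The peaks of nhr-68 and mrp-5 lie farthest to the left, and 6 genes have no thresholded peak within 5000 bp.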

How the data were processed

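Peaks came from 4 deposited lists on ce11. Per the accompanying notes, a replicate list derives from 1 alignment and 1 control, the pooled one joins the replicates, and IDR on these lists gave the thresholded one. The aligner, the caller and the IDR threshold were not given in the sources used here. The signal of a peak is the authors' deposited enrichment value (the signal field of the narrowPeak format the notes name), on a scale that differs between lists. The authors' −log10 q-values have a ceiling and were not used for ranking. No reads were used, so depth and its precision are unknown. Lists on ce10 were not used.

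Genes and 5′ ends came from the Ensembl release 115 annotation of WBcel235. Peak ends lay within its chromosomes. Neighbours were sought among protein-coding genes. The members and lists were chosen with earlier results of these data known. Text names all members, every neighbour nearer to their thresholded summits, listed genes with promoter summits, and up to 3 others per list in alphabetical order. Other neighbours were named after their values were seen. The counting rules were tested on simulated data. Alternatives were other distances, windows, words, overlaps, the stronger part of the list and each replicate alone. Python 3.11.15, NumPy 2.4.6 and pandas 2.3.3 were used.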

Additional observations from a re-analysis of the deposited data

How the results depend on the processing

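Of 28 alternative values for 6 counts, 23 stayed within 1.5 times the reported one. The 5 others were these. With only the 2721 strongest thresholded peaks, members with a promoter summit fell from 5 to 3 (pccb-1, hphd-1 and sams-1) and listed pathway genes from 22 to 14. With the 2721 strongest of each replicate, shared member peaks fell from 16 to 9. With 25 or 100 bp either side of the summit in place of 50 bp, TGATAA was at 4 or 13 of 16 peaks in place of 8. No share over all genes or peaks is given for these settings or for the single replicates below. Whether the members moved more than all genes or peaks was not tested. The 5443 strongest peaks of replicate 2 alone (without replicate 1) gave 7 members with a peak within 5000 bp and 7 with a promoter summit, mce-1 joining both and mtrr-1 the latter, while those of replicate 1 alone gave 6 and 5. The cause was not tested. No paired analysis was possible because there is 1 group. Whether a weak peak at mce-1 or mtrr-1 is occupied cannot be read from peak lists whose depth is unknown.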

Other observations

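Of 41 pooled peaks at the 8 genes 16 were thresholded, and the other 25 ranked from 5872 to 16581 of 16833. The highest of these lay inside sams-1, 3772 bp downstream of its start and near its 3′ end, with a signal of 133. It ranked 4442 in replicate 2 (signal 75.4), while the nearest replicate 1 summit, 3807 bp downstream, ranked 9489 (signal 50.9). At metr-1 a pair of weak pooled peaks lay in coding exons, 98 and 310 bp downstream of the start, with ranks 9497 and 8473.

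The stretch around mmcm-1 without any summit of the pooled list was 21787 bp long, between summits at 3894135 and 3915922 on chromosome III. Of the 16827 intervals between neighbouring pooled summits 6.10% were at least as long, and the median interval was 2085 bp. This share counts intervals, and a long interval covers more bases than a short one. It is therefore not the share of the genome or of genes lying in such stretches, which is larger for bases and was not counted for genes. The reason for this stretch was not tested.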
